A study of Homo sapiens with 5 samples.

Results

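The genes described here encode the machinery that opens replication origins and copies DNA at the fork. They comprise 49 of the 26485 genes in the count table and were taken by symbol from a list of such genes. The list was compiled from general knowledge, with earlier results of these data known. It holds the MCM helicase proteins, the origin recognition complex, the licensing and firing factors, GINS and the 3 replicative polymerases. It also holds the clamp and clamp loader, the single-strand binding protein RPA and the enzymes that finish Okazaki fragments. All 49 symbols were found, and all 49 passed the filter on low counts. RNA-seq of poly-A RNA was performed on RPE1 cells, a human cell line from the retinal pigment epithelium that the labels give as wild type. There were 2 libraries of cells kept in the vehicle DMSO, 2 of cells in 0.2 μM doxorubicin and 1 of cells in 0.34 μM doxorubicin, each for 18 h. The sample labels give these concentrations, whereas the protocol text in the labels gives higher values in the same unit. Doxorubicin is an anthracycline that intercalates into DNA and poisons type II topoisomerases. The authors' methods call the libraries of a condition biological replicates. The p-values given here set a difference against the spread between these libraries. Where the doses are pooled, that spread also includes any difference between the doses.

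In the G1 phase, the origin recognition complex ORC, CDC6 and CDT1 load the ring of MCM2 to MCM7 onto DNA, a step called licensing, and geminin (GMNN) blocks CDT1 afterwards. At the start of S phase the kinase CDC7 with its activator DBF4, together with cyclin-dependent kinases, turns the loaded ring into the active helicase by adding CDC45 and GINS. Polymerase α with its primase then starts each strand, RFC loads the ring-shaped clamp PCNA, and polymerases δ and ε extend the DNA. Many of these genes are transcribed at the G1/S border under the control of E2F factors, and p53 holds E2F targets down through p21, the product of CDKN1A.

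Library totals ranged from 23773061 to 36725345 counts. CDKN1A measured 294 and 258 CPM in DMSO and 2975, 2366 and 3358 CPM in doxorubicin (CPM, the library's counts scaled to a common total with TMM normalization), so that all doxorubicin libraries lay above both DMSO libraries. Of 10 markers of the retinal pigment epithelium, RPE65, RLBP1, TYR, TYRP1 and TTR had at most 8 counts in any library and SERPINF1 at most 29, while the regulators MITF and OTX2 had between 743 and 1503 and between 601 and 887. BEST1 had 26 and 14 counts in the DMSO libraries against 86, 30 and 142 in the treated ones, and PMEL had 7 and 5 against 22, 32 and 46. The summed level of the 10 was between 54.5 and 87.6 CPM in DMSO and between 71.4 and 80.5 CPM in doxorubicin. The list of 7 markers for epithelial lines also holds CDH2 and VIM, which are usually taken as mesenchymal. CDH1 and EPCAM had at most 4 counts. KRT8 measured 369 and 346 CPM in DMSO and 661, 636 and 661 CPM in doxorubicin. KRT18 measured 327 and 238 CPM against 515, 334 and 460 CPM, while KRT7 overlapped between the groups. The sum of the 7 was between 6708 and 7043 CPM in DMSO and between 6027 and 6823 CPM in doxorubicin. It was mostly VIM and does not describe the keratins. Of markers of blood, endothelium and neurons, CD3E and HBB had 0 counts and PECAM1 and RBFOX3 at most 13. PTPRC had 5 and 7 counts in the DMSO libraries against 25, 53 and 72 in the treated ones, CDH5 had 56 and 69 in the second library of the DMSO and 0.2 μM pairs and at most 5 in the others, and SYT1 had between 1258 and 2340. Of the 13 markers that passed the filter, edgeR called 0 at 0.01, with 6 at an unadjusted p under 0.05, and DESeq2 called 3 (PTPRC and KRT8 higher, SYT1 lower). The part of these markers in the results below was not tested. In RNA from whole cultures, fewer cells in S phase and less RNA per cell cannot be told apart.

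With the 3 doxorubicin libraries against the 2 DMSO libraries, 26 of the 49 genes fell and 1 rose past an adjusted p of 0.01 (edgeR quasi-likelihood test, Benjamini-Hochberg adjustment over 14187 genes), against 2.73% of all genes tested that fell and 1.29% that rose. The median log2 fold change of the 49 genes was -2.02, beside a median of 0.01 over all genes tested. All 3 doxorubicin libraries lay below both DMSO libraries for 43 genes (23.4% of all genes tested did so), above both for PCNA and POLD4 (24.3%), and overlapped them for ORC4, POLE4, RPA3 and LIG1. For 29 genes the lower DMSO library exceeded the highest doxorubicin library by over 2-fold, as it did for 3.22% of all genes tested, and for 10 genes by over 4-fold (1.03%). Of the 22 genes that did not pass 0.01, 15 had an adjusted p between 0.0108 and 0.0473, and 7 had one over 0.05 (ORC2, ORC4, ORC5, POLE4, PCNA, RPA3 and LIG1). At an adjusted p of 0.05, edgeR called 41 genes lower and 1 higher, against 7.48% and 6.1% of all genes tested. DESeq2 called 41 genes lower and 1 higher at 0.01, where it called 8.18% of 13911 genes lower and 6.72% higher.

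The number of calls rested on each library. With edgeR, 4 and 5 genes were called lower without the first and the second 0.2 μM library, and 5 without the 0.34 μM library. The number was also lower without DMSO library 1 or DMSO library 2. Calls over all genes tested fell in each of these fits too. Without 1 doxorubicin library, at most 183 were called lower, against 388 with all libraries. Without DMSO library 2, 43 of the 49 genes had a negative log2 fold change, where the median over all genes tested was 0.01. Without either DMSO library that arm holds 1 library, which is assumed to vary like the doxorubicin libraries, from which alone the spread then comes. The sizes of the differences changed less: the median was -2.30 without DMSO library 1 and -1.50 without DMSO library 2, and 45 of the 49 genes kept their sign in all 5 of these fits. DBF4 and POLD3 were called in 4 of the 5.

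**Figure D1:**
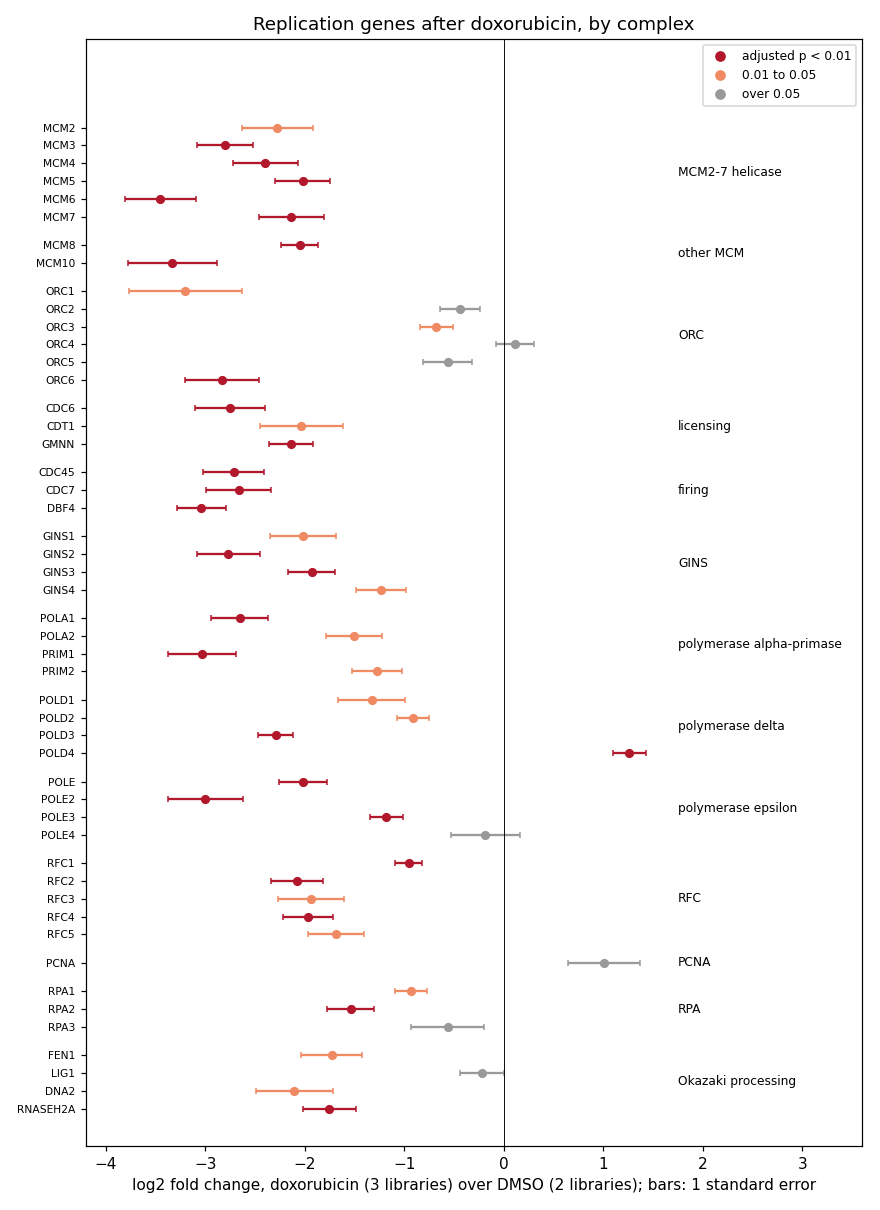
Log2 fold change of each of the 49 genes, 3 doxorubicin libraries over 2 DMSO libraries, with bars of 1 standard error, grouped by complex and coloured by edgeR adjusted p. MCM6 lies lowest at -3.45, POLD4 and PCNA lie above 0 at 1.26 and 1.01, and ORC1 (-3.20) and ORC6 (-2.83) lie apart from the other ORC genes.

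Promoter sequences from RefSeq (GRCh38.p14), from 250 bases before to 50 bases after the start of the transcript, were matched for 42 of the 49 genes. They were searched on both strands for the E2F words TTTCCCGC, TTTGGCGC, TTTCGCGC and TTTGCCGC. Of the 42 promoters, 18 held such a word (42.9%), compared with 5.41% of 10362 promoters of genes tested and 3.31% of 35116 promoters in all. The words lay between 187 bases before and 27 bases after the start. With the window shortened to 120 bases before the start, 17 of the 42 held one, and 3.04% of the genes tested. Among the promoters of genes called lower, 10 of 22 held a word (45.5%), and among the others 8 of 20 did (40.0%).

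The promoters below belong to genes with different values: MCM6, which had the lowest log2 fold change of the 49, the licensing factor gene CDC6, the ligase gene LIG1, whose groups overlapped, and PCNA and POLD4, which lay higher in doxorubicin. They lie at chr2:135876394-135876693 (MCM6, minus strand), chr17:40287629-40287928 (CDC6, plus strand), chr19:48170295-48170594 (LIG1, minus strand), chr20:5119909-5120208 (PCNA, minus strand) and chr11:67353497-67353796 (POLD4, minus strand). Each is written 5′ to 3′ along its gene. Capitals mark E2F words in MCM6, CDC6 and LIG1 and a match to the p53 consensus decamer in PCNA. In POLD4 neither was found.
MCM6: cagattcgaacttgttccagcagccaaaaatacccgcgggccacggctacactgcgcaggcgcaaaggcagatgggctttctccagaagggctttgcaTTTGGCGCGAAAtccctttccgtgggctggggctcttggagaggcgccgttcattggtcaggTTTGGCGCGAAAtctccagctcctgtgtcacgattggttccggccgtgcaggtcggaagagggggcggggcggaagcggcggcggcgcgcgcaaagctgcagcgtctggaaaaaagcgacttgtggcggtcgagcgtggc
CDC6: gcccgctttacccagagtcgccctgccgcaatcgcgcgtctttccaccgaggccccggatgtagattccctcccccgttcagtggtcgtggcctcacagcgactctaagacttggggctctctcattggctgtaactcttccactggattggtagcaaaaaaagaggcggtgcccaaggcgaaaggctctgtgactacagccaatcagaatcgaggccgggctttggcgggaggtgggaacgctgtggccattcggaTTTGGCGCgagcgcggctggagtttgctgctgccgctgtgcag
LIG1: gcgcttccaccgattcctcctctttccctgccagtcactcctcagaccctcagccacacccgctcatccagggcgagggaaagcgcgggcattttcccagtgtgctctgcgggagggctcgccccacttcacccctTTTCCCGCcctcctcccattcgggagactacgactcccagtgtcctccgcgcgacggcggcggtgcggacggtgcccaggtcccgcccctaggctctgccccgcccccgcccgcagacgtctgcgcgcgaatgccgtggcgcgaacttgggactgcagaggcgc
PCNA: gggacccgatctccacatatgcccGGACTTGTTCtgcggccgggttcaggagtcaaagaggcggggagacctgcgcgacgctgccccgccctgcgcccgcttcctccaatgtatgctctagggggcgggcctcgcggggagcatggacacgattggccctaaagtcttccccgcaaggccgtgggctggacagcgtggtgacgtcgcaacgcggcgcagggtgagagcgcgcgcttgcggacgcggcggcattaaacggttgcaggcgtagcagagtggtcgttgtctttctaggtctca
POLD4: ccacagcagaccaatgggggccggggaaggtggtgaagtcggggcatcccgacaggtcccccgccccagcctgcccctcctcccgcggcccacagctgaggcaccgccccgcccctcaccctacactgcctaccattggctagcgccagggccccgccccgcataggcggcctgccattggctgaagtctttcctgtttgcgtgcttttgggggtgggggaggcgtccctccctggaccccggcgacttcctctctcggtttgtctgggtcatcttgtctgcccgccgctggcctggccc
The MCM6 promoter held 4 E2F words, which overlapped pairwise in 2 copies of the stretch TTTGGCGCGAAA. CDC6 held TTTGGCGC starting 8 bases after the start, and LIG1 held TTTCCCGC 114 bases before it. A word was thus present both in the gene with the lowest value and in LIG1, which did not pass the test. In PCNA the p53 decamer GGACTTGTTC began 226 bases before the start. A match to this decamer was found in 5 of the 42 promoters (11.9%), also in MCM6 (not in capitals here), CDC7, PRIM2 and RFC3, compared with 5.07% of the genes tested and 6.63% of all promoters. A match describes the letters only and is not a measured binding site.

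The median log2 fold change was -2.04 over the 18 genes with an E2F word, -1.71 over the 24 without one and -2.02 over the 7 whose promoter was not matched (MCM4, MCM5, GINS4, POLD3, RPA2, RPA3 and DNA2). ORC1, MCM10 and DBF4 had no E2F word and values of -3.20, -3.33 and -3.04, while POLE4 and LIG1 had one and values of -0.19 and -0.22. The CCAAT box (CCAAT) was found in 24 of the 42 promoters (57.1%, against 36.6% of the genes tested), the GC box (GGGCGG) in 30 (71.4%, against 71.9%), and the cell cycle element TTTGAA in DBF4 alone (2.38%, against 9.23%), all on both strands.

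**Figure D2:**
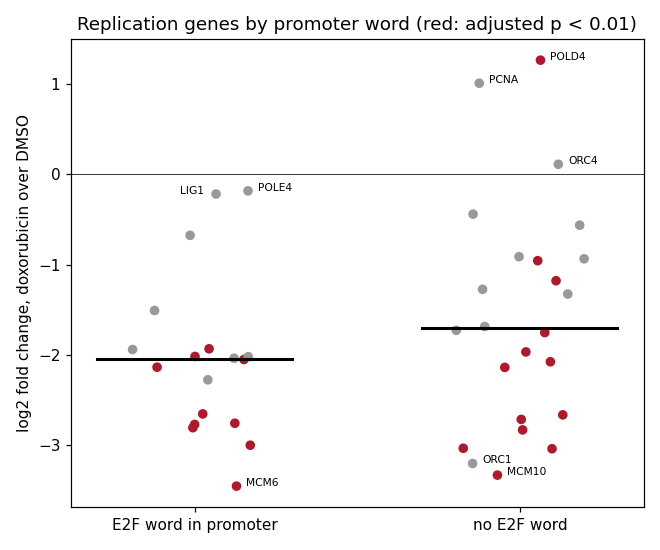
Log2 fold change, doxorubicin over DMSO, of the 42 genes with a matched promoter, split by whether the 300 bases hold an E2F word, with black lines at the medians and red points at an edgeR adjusted p under 0.01. The medians are -2.04 with a word and -1.71 without, and PCNA, POLD4 and ORC4 lie above 0 without a word.

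The replicative helicase subunits MCM2 to MCM7, which form a ring in equal numbers around DNA, were all lower in doxorubicin (median log2 fold change -2.34), and 5 of the 6 fell past 0.01. Their summed level was 535 and 1094 CPM in DMSO and 156, 177 and 127 CPM in doxorubicin. MCM6, whose promoter is shown above, measured 57.6 and 121 CPM in DMSO and 9.203, 9.44 and 5.897 CPM in doxorubicin (log2 fold change -3.45, standard error 0.36, edgeR adjusted p = 0.00261). Its lower DMSO library was 6.11 times its highest doxorubicin library. MCM3 measured 98.3 and 184 CPM in DMSO and 21.8, 22.04 and 16.8 CPM in doxorubicin (log2 fold change -2.80, standard error 0.28, edgeR adjusted p = 0.00225). MCM4, which carries regulatory sites for CDC7, measured 142 and 275 CPM in DMSO and 35.96, 51.6 and 31.2 CPM in doxorubicin (log2 fold change -2.40, standard error 0.33, edgeR adjusted p = 0.00664). For these 3 subunits DMSO library 2 was 2.09-, 1.87- and 1.94-fold above DMSO library 1, and both stood well above the doxorubicin libraries.

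MCM5 measured 65.96 and 126 CPM in DMSO and 26.3, 23.3 and 21.5 CPM in doxorubicin (log2 fold change -2.02, standard error 0.28, edgeR adjusted p = 0.00662), and its doxorubicin libraries lay close together. MCM7 measured 119.9 and 257 CPM in DMSO and 43.6, 50.8 and 34.5 CPM in doxorubicin (log2 fold change -2.14, standard error 0.33, edgeR adjusted p = 0.00996), but its span overlaps AP4M1 and the microRNA genes MIR106B, MIR25 and MIR93. AP4M1 had between 143 and 333 counts per library, and MCM7 between 1127 and 6571. MCM2 measured 51.5 and 130.5 CPM in DMSO and 19.7, 19.7 and 17.03 CPM in doxorubicin, and its fold change of -2.27 did not pass 0.01 (standard error 0.36, edgeR adjusted p = 0.0108). The groups did not overlap for MCM2, and its DMSO libraries lay 2.53-fold apart. Its log2 fold change was -1.47 without DMSO library 2, and without DMSO library 1 it was -2.80 and passed 0.01 (edgeR adjusted p = 0.00489). Without DMSO library 2 the value of MCM6 was -2.84 and that of MCM7 -1.50, and neither passed 0.01. The ratio of MCM2 to MCM6 was 0.893 and 1.08 in DMSO and 2.14, 2.09 and 2.89 in doxorubicin, higher in each doxorubicin library than in either DMSO library. The ratios here are given as descriptions: an exact permutation test of 3 against 2 libraries cannot give a p below 0.1, and no other test of them was run.

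MCM8 and MCM10 are not part of the ring: MCM8 works with MCM9 in repair, and MCM10 takes part in helicase activation. Both fell. MCM10 measured 21.02 and 35.9 CPM in DMSO and 2.71, 4.32 and 1.54 CPM in doxorubicin (log2 fold change -3.33, standard error 0.44, edgeR adjusted p = 0.0061), and MCM8 measured 30.9 and 37.1 CPM in DMSO and 7.81, 9.35 and 7.47 CPM in doxorubicin (log2 fold change -2.05, standard error 0.19, edgeR adjusted p = 0.00166). The DMSO libraries differed less for MCM8 than for any of MCM2 to MCM7, by 0.26 on the log2 scale. MCM8 overlaps the antisense gene MCM8-AS1, which had at most 28 counts per library.

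The ORC genes split. ORC1 and ORC6 were far lower in doxorubicin, while ORC2, ORC3, ORC4 and ORC5, which form the core of the complex, had log2 fold changes between -0.68 and 0.11. Over the 6 genes, 1 fell past 0.01 and the median was -0.62. ORC6, the smallest subunit, measured 17.4 and 28.5 CPM in DMSO and 2.204, 4.698 and 2.81 CPM in doxorubicin (log2 fold change -2.83, standard error 0.37, edgeR adjusted p = 0.00593). ORC1, the subunit whose protein is known to rise and fall over the cell cycle, measured 7.401 and 27.1 CPM in DMSO and 1.47, 2.702 and 1.49 CPM in doxorubicin. Its fold change of -3.20 had a standard error of 0.57 and did not pass 0.01 (edgeR adjusted p = 0.0155), and its 2 DMSO libraries lay further apart than those of any other of the 49 genes. The counts of ORC1 were 194 and 693 in the DMSO libraries against 38, 65 and 54 in the treated ones, and leaving out DMSO library 2 moved its fold change from -3.20 to -2.00, and leaving out DMSO library 1 moved it to -3.87 and past 0.01 (edgeR adjusted p = 0.00937).

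ORC4 measured 28.6 and 33.6 CPM in DMSO and 29.6, 39.8 and 31.2 CPM in doxorubicin, so the groups overlapped (log2 fold change 0.11, standard error 0.19, edgeR adjusted p = 0.744). ORC2 measured 40.1 and 43.9 CPM in DMSO and 26.5, 38.2 and 28.02 CPM in doxorubicin (log2 fold change -0.44, standard error 0.20, edgeR adjusted p = 0.192), and the highest doxorubicin library stood just below the lower DMSO library. ORC3 measured 37.3 and 32.2 CPM in DMSO and 22.4, 23.4 and 19.5 CPM in doxorubicin (log2 fold change -0.68, standard error 0.17, edgeR adjusted p = 0.043). ORC5 measured 15.9 and 20.6 CPM in DMSO and 10.8, 15.8 and 10.5 CPM in doxorubicin (log2 fold change -0.56, standard error 0.25, edgeR adjusted p = 0.181), again with the second 0.2 μM library next to the lower DMSO library. The ratio of ORC1 to ORC4 was 0.258 and 0.809 in DMSO and 0.0496, 0.0678 and 0.0476 in doxorubicin. The corresponding ratio of ORC6 to ORC4 was 0.607 and 0.8495 in DMSO and 0.0744, 0.118 and 0.08995 in doxorubicin. ORC4 overlaps MBD5 and ACVR2A, ORC3 overlaps AKIRIN2 and ORC1 overlaps PRPF38A, so their counts could include reads of these genes. PRPF38A had between 655 and 1373 counts per library, more than ORC1 in each library.

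The licensing factors had a median of -2.14. CDC6, the ATPase that completes the loading of the MCM ring together with ORC, measured 34.5 and 66.5 CPM in DMSO and 8.31, 9.06 and 5.13 CPM in doxorubicin and fell (log2 fold change -2.76, standard error 0.35, edgeR adjusted p = 0.00529). GMNN, the inhibitor of CDT1, measured 25.6 and 36.5 CPM in DMSO and 6.92, 8.07 and 6.17 CPM in doxorubicin and fell (log2 fold change -2.14, standard error 0.22, edgeR adjusted p = 0.0027). CDT1 itself measured 13.5 and 37.6 CPM in DMSO and 7.04, 6.61 and 5.04 CPM in doxorubicin, and its fold change did not pass 0.01 (log2 fold change -2.04, standard error 0.42, edgeR adjusted p = 0.0244). The CDT1 libraries did not overlap between the groups, but DMSO library 2 was 2.79-fold above DMSO library 1. Without DMSO library 2 the log2 fold change of CDT1 was -1.13, and without DMSO library 1 it was -2.60 and passed 0.01 (edgeR adjusted p = 0.00873). The ratio of CDT1 to GMNN was 0.527 and 1.03 in DMSO and 1.02, 0.8196 and 0.817 in doxorubicin, so that the doxorubicin libraries lay inside the range of the DMSO libraries.

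All 3 firing factors fell, with a median of -2.71. DBF4, the regulatory subunit of the CDC7 kinase, measured 38.5 and 44.6 CPM in DMSO and 4.56, 6.61 and 4.05 CPM in doxorubicin (log2 fold change -3.04, standard error 0.25, edgeR adjusted p = 0.00125). CDC7 measured 15.6 and 23.1 CPM in DMSO and 2.44, 4.24 and 2.51 CPM in doxorubicin (log2 fold change -2.66, standard error 0.32, edgeR adjusted p = 0.00444). CDC45, the helicase cofactor, measured 18.9 and 29.1 CPM in DMSO and 3.63, 4.698 and 2.67 CPM in doxorubicin (log2 fold change -2.71, standard error 0.31, edgeR adjusted p = 0.00352). DBF4 had DMSO libraries only 0.21 apart on the log2 scale and its lower DMSO library was 5.83 times its highest doxorubicin library.

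The 4 GINS genes encode a ring of 4 subunits that joins CDC45 and the MCM ring. They were all lower, with a median of -1.98, and 2 of the 4 passed 0.01. GINS2 measured 17.1 and 31.6 CPM in DMSO and 3.91, 3.99 and 2.84 CPM in doxorubicin (log2 fold change -2.77, standard error 0.32, edgeR adjusted p = 0.00353), and GINS3 measured 14.95 and 22.1 CPM in DMSO and 4.56, 5.197 and 4.79 CPM in doxorubicin (log2 fold change -1.93, standard error 0.23, edgeR adjusted p = 0.00431). GINS1 measured 20.8 and 30.9 CPM in DMSO and 5.95, 8.81 and 4.41 CPM in doxorubicin (log2 fold change -2.02, standard error 0.33, edgeR adjusted p = 0.0116). GINS4 measured 38.3 and 54.6 CPM in DMSO and 16.98, 25.4 and 17.1 CPM in doxorubicin (log2 fold change -1.23, standard error 0.25, edgeR adjusted p = 0.0241), the smallest difference of the 4. No GINS gene overlapped between the groups. GINS2 overlaps GSE1, which had between 616 and 2093 counts per library.

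Polymerase α and its primase, which lay down the RNA-DNA primer of each strand, had a median of -2.08, and 2 of the 4 genes fell past 0.01. PRIM1, the catalytic primase subunit, measured 10.6 and 20.01 CPM in DMSO and 1.66, 2.33 and 1.63 CPM in doxorubicin (log2 fold change -3.03, standard error 0.34, edgeR adjusted p = 0.00352). POLA1, the catalytic polymerase subunit, measured 40.4 and 53.5 CPM in DMSO and 7.46, 9.81 and 5.21 CPM in doxorubicin (log2 fold change -2.65, standard error 0.29, edgeR adjusted p = 0.00302). In both catalytic subunits the lower DMSO library was over 4 times the highest doxorubicin library. The accessory subunits had smaller differences. POLA2 measured 32.4 and 58.99 CPM in DMSO and 15.4, 19.1 and 13.7 CPM in doxorubicin (log2 fold change -1.51, standard error 0.28, edgeR adjusted p = 0.0181), and PRIM2 measured 17.1 and 27.7 CPM in DMSO and 10.2, 9.73 and 7.94 CPM in doxorubicin (log2 fold change -1.27, standard error 0.25, edgeR adjusted p = 0.0223). PRIM2 overlaps RAB23, which had between 468 and 1138 counts per library.

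The 4 subunits of polymerase δ, which extends the lagging strand, included 1 gene that fell and 1 that rose, and had a median of -1.12. POLD3 measured 31.7 and 36.5 CPM in DMSO and 7.11, 6.24 and 7.49 CPM in doxorubicin and fell (log2 fold change -2.29, standard error 0.18, edgeR adjusted p = 0.0011). Its log2 fold change stayed between -2.40 and -2.20 whichever library was left out. POLD4, the smallest subunit, measured 28.5 and 34.1 CPM in DMSO and 76.6, 67.1 and 81.04 CPM in doxorubicin and was the only one of the 49 genes that rose past 0.01 (log2 fold change 1.26, standard error 0.17, edgeR adjusted p = 0.00622). Its lowest doxorubicin library lay well above its higher DMSO library. Leaving out any one library kept its log2 fold change between 1.13 and 1.38 and ended the call, with edgeR adjusted p between 0.0151 and 0.0366. POLD4 overlaps LOC100130987, which had between 16 and 45 counts per library.

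POLD2, a structural subunit, measured 142 and 151 CPM in DMSO and 90.2, 68.98 and 74.5 CPM in doxorubicin (log2 fold change -0.91, standard error 0.16, edgeR adjusted p = 0.0149). The catalytic subunit POLD1 measured 23.8 and 50.5 CPM in DMSO and 18.6, 13.01 and 12.8 CPM in doxorubicin (log2 fold change -1.33, standard error 0.34, edgeR adjusted p = 0.0473), with DMSO libraries 2.12-fold apart and a log2 fold change of -0.70 without DMSO library 2. Neither passed 0.01, though their groups did not overlap. The ratio of POLD4 to POLD2 was 0.2002 and 0.226 in DMSO and 0.849, 0.973 and 1.09 in doxorubicin. The summed level of the 4 subunits was 226 and 272 CPM in DMSO and 192, 155 and 176 CPM in doxorubicin, a smaller difference than for the MCM ring.

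Polymerase ε, which extends the leading strand, had a median of -1.60, and 3 of its 4 genes fell. The catalytic subunit POLE measured 61.5 and 99.9 CPM in DMSO and 20.1, 22.7 and 17.1 CPM in doxorubicin (log2 fold change -2.02, standard error 0.24, edgeR adjusted p = 0.00422). POLE2 measured 6.18 and 8.19 CPM in DMSO and 1.04, 1.12 and 0.551 CPM in doxorubicin (log2 fold change -3.00, standard error 0.38, edgeR adjusted p = 0.00501), which rests on 162 and 209 counts in the DMSO libraries against 27, 27 and 20 in the treated ones. POLE3, a histone-fold subunit that also occurs in a chromatin remodeller, measured 120.2 and 99.4 CPM in DMSO and 45.4, 55.7 and 44.4 CPM in doxorubicin (log2 fold change -1.18, standard error 0.17, edgeR adjusted p = 0.00767). Its histone-fold partner POLE4 measured 12.6 and 30.7 CPM in DMSO and 19.4, 18.96 and 18.8 CPM in doxorubicin, with all doxorubicin libraries between the DMSO libraries (log2 fold change -0.19, standard error 0.35, edgeR adjusted p = 0.761). Without DMSO library 2 the log2 fold change of POLE4 was 0.58. The ratio of POLE4 to POLE2 was 2.03 and 3.76 in DMSO and 18.6, 16.9 and 34.05 in doxorubicin.

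**Figure D3:**
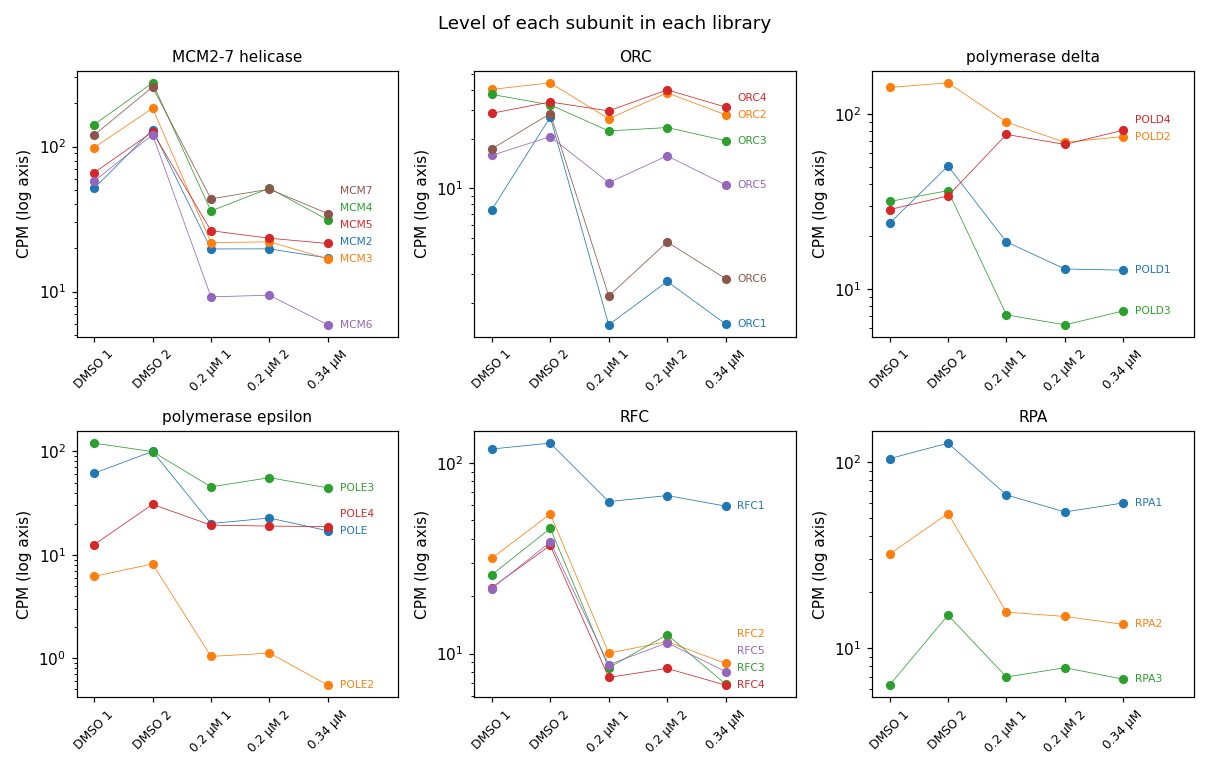
Level in CPM (log axis) of each subunit of 6 complexes in each of the 5 libraries, with thin lines only to link the points of a gene. The MCM2 to MCM7 lines all end below their DMSO points, with MCM6 lowest, ORC1 and ORC6 leave the other ORC genes, POLD4 crosses POLD3 and POLD1, and POLE4 and RPA3 end within the range of their DMSO libraries.

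The clamp loader RFC consists of a large subunit, RFC1, and 4 small ones. All 5 genes were lower, 3 of them past 0.01, with a median of -1.94. RFC2 measured 31.6 and 53.97 CPM in DMSO and 10.1, 11.6 and 8.87 CPM in doxorubicin (log2 fold change -2.08, standard error 0.26, edgeR adjusted p = 0.00492), and RFC4 measured 22.2 and 36.9 CPM in DMSO and 7.502, 8.36 and 6.83 CPM in doxorubicin (log2 fold change -1.97, standard error 0.25, edgeR adjusted p = 0.00539). RFC3 measured 25.9 and 45.3 CPM in DMSO and 8.43, 12.6 and 6.92 CPM in doxorubicin (log2 fold change -1.94, standard error 0.33, edgeR adjusted p = 0.0135). RFC5 measured 21.9 and 38.4 CPM in DMSO and 8.74, 11.4 and 8.05 CPM in doxorubicin (log2 fold change -1.69, standard error 0.28, edgeR adjusted p = 0.013). The 4 small subunits thus lay between -2.08 and -1.69, closer to each other than the subunits of the polymerases. RFC1 measured 118 and 127 CPM in DMSO and 62.6, 67.4 and 59.3 CPM in doxorubicin and fell by less (log2 fold change -0.96, standard error 0.14, edgeR adjusted p = 0.00754). The ratio of RFC1 to RFC4 was 5.32 and 3.44 in DMSO and 8.35, 8.06 and 8.68 in doxorubicin. RFC5 overlaps WSB2, which had between 5103 and 7643 counts per library, more than RFC5 itself.

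PCNA, the sliding clamp that tethers polymerases and is also a known p53 target, had higher values in doxorubicin, unlike its loader. It measured 86.02 and 166 CPM in DMSO and 185, 344 and 230.4 CPM in doxorubicin, all doxorubicin libraries above both DMSO libraries. The log2 fold change of 1.01 had a standard error of 0.36 and did not pass the test (edgeR adjusted p = 0.117, DESeq2 adjusted p = 0.0306). The second library was above the first by 0.95 on the log2 scale in DMSO and by 0.90 in 0.2 μM doxorubicin. The ratio of PCNA to FEN1, a flap nuclease that works on the clamp, was 1.86 and 1.83 in DMSO and 8.86, 14.01 and 13.8 in doxorubicin. Against the loader subunit RFC4 the ratio was 3.88 and 4.50 in DMSO and 24.6, 41.2 and 33.7 in doxorubicin. The antisense gene PCNA-AS1 and the pseudogene PCNAP1 had 0 counts in every library.

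RPA, the trimer that coats single-stranded DNA in replication and repair, had a median of -0.94, and 1 of 3 genes fell. RPA2 measured 32.04 and 52.9 CPM in DMSO and 15.6, 14.8 and 13.4 CPM in doxorubicin (log2 fold change -1.54, standard error 0.24, edgeR adjusted p = 0.00973). RPA1 measured 104 and 126 CPM in DMSO and 66.5, 53.9 and 60.3 CPM in doxorubicin (log2 fold change -0.94, standard error 0.16, edgeR adjusted p = 0.0138). RPA3 measured 6.33 and 15.04 CPM in DMSO and 6.999, 7.86 and 6.81 CPM in doxorubicin (log2 fold change -0.57, standard error 0.36, edgeR adjusted p = 0.34), with the doxorubicin libraries near DMSO library 1. Without DMSO library 2 its log2 fold change was 0.17. The ratio of RPA3 to RPA2 was 0.198 and 0.284 in DMSO and 0.448, 0.531 and 0.507 in doxorubicin. RPA3 overlaps UMAD1, which had between 222 and 440 counts per library, while RPA3 itself had between 166 and 384.

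The enzymes that process Okazaki fragments had a median of -1.74, and 1 of 4 fell past 0.01. RNASEH2A, the catalytic subunit of an RNase H that removes RNA from DNA, measured 26.6 and 45.8 CPM in DMSO and 11.9, 11.6 and 8.82 CPM in doxorubicin (log2 fold change -1.75, standard error 0.27, edgeR adjusted p = 0.00996). FEN1 measured 46.2 and 90.8 CPM in DMSO and 20.8, 24.6 and 16.7 CPM in doxorubicin (log2 fold change -1.73, standard error 0.31, edgeR adjusted p = 0.0154). DNA2, a nuclease for long flaps, measured 16.02 and 31.2 CPM in DMSO and 5.84, 7.15 and 3.55 CPM in doxorubicin (log2 fold change -2.10, standard error 0.38, edgeR adjusted p = 0.0166). The groups did not overlap for these 3. LIG1, the ligase that seals the fragments, measured 44.9 and 70.7 CPM in DMSO and 45.5, 56.4 and 47.1 CPM in doxorubicin, with all doxorubicin libraries between the DMSO libraries (log2 fold change -0.22, standard error 0.22, edgeR adjusted p = 0.556). Without DMSO library 2 its log2 fold change was 0.12. The ratio of LIG1 to FEN1 was 0.972 and 0.778 in DMSO and 2.18, 2.29 and 2.81 in doxorubicin, higher in all doxorubicin libraries.

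**Figure D4:**
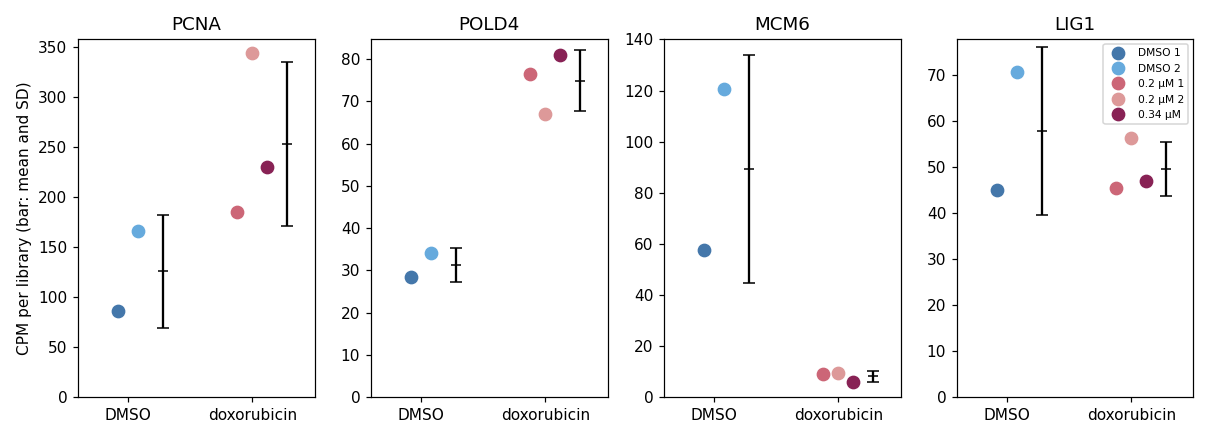
CPM of PCNA, POLD4, MCM6 and LIG1 in each library, with bars at the mean ± SD of the 2 DMSO and of the 3 doxorubicin libraries. The doxorubicin points lie above both DMSO points for PCNA and POLD4, below both for MCM6 and between them for LIG1.

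To compare genes with each other, CPM values were divided by the length of the canonical transcript in kilobases. On this scale PCNA had the highest mean level of the 49 genes in both conditions, 98.8 CPM per kilobase in DMSO and 198 in doxorubicin. POLD2 was next in both, at 91.1 and 48.4. MCM7 at 76.5 and MCM4 at 51.3 CPM per kilobase followed in DMSO. In doxorubicin the third place was held by POLD4, which moved up from place 20 (18.5 to 44.2 CPM per kilobase). LIG1 moved from place 19 to 7, POLE4 from 18 to 6 and ORC4 from 47 to 25, while MCM6 moved from 16 to 34. POLE2 had the lowest level in both, 4.25 and 0.535 CPM per kilobase. In DMSO the libraries of all 48 pairs of neighbours in this order overlapped. In doxorubicin 44 of the 48 pairs overlapped, the exceptions being PCNA above POLD2, POLD4 above POLE3, LIG1 above RFC1 and RPA3 above POLE.

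Between the doses, no gene of the 49 was called (0.34 μM against 0.2 μM, edgeR, 0% of all genes tested), and 0 had an unadjusted p under 0.05, where 22 of the 14187 genes tested did. As a share, that is far below 0.05, so the test was conservative here. Its lack of calls does not show equal levels at both doses. DESeq2 gave 1 of the 49 genes and 26 of all genes an unadjusted p under 0.05. The median log2 difference of the 49 genes was -0.31, beside -0.02 over all genes. The 0.34 μM library was the lowest of the 3 doxorubicin libraries for 36 of the 49 genes (73.5%), against 28.9% of all genes tested. The smallest p was that of MCM10, at 2.71 and 4.32 CPM in 0.2 μM and 1.54 CPM in 0.34 μM (log2 difference -1.18, unadjusted p = 0.0547, edgeR). With 1 library at 0.34 μM, dose and library cannot be told apart.

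Set against DMSO one dose at a time, in a fit of 3 conditions, the median log2 fold change was -1.90 at 0.2 μM and -2.18 at 0.34 μM. The 2 doses share the DMSO libraries. At 0.2 μM, 5 of the 49 genes passed 0.01 (edgeR, 1.21% of all genes tested in either direction): MCM3, MCM6, DBF4, POLA1 and POLD3. At 0.34 μM, 0 of the 49 genes passed (0.627% of all genes tested in either direction). There, 46 of the 49 genes had a negative log2 fold change, where the median over all genes tested was -0.002. The 0.34 μM arm is 1 library, which this fit assumes to vary like the libraries of the other conditions, so the counts of calls at the 2 doses were not compared.

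The 2 DMSO libraries differed from each other in these genes. DMSO library 2 was above DMSO library 1 for 47 of the 49 genes, as it was for 50.5% of all genes tested, with a median difference of 0.72 in log2 CPM against 0.01 over all genes. The difference exceeded 0.5 for 35 genes (17.6% of all genes) and 1 for 8 genes (4.44%). The 8 were ORC1 at 1.86, CDT1 at 1.48, MCM2 at 1.34, POLE4 at 1.29, RPA3 at 1.24, MCM7 at 1.10, POLD1 at 1.08 and MCM6 at 1.07. ORC3 and POLE3 were lower in library 2, at -0.21 and -0.27. This is 1 library against 1, so that no test of it was made.

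By complex, the median DMSO difference was 1.01 for MCM2 to MCM7, 0.95 for the licensing factors, 0.87 for the Okazaki enzymes, 0.77 for RFC, 0.30 for ORC and 0.23 for polymerase δ. All 6 ring subunits lay between 0.90 and 1.34. Within the 0.2 μM pair, library 2 was above library 1 for 38 of the 49 genes (52.2% of all genes), with a median of 0.22. There the ring subunits had a median of 0.03, ORC of 0.53 and polymerase δ of -0.29, with all 4 polymerase δ genes lower in library 2.

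Other cell cycle genes differed between the DMSO libraries too. Over 16 E2F-driven G1/S genes outside the fork, library 2 was higher for all 16, with a median of 0.67. Over 20 G2/M genes it was higher for 15, with a median of 0.29, and over 16 p53 targets for 10, with a median of 0.08. The part of these lists in the difference of the replication genes between the DMSO libraries was not tested.

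**Figure D5:**
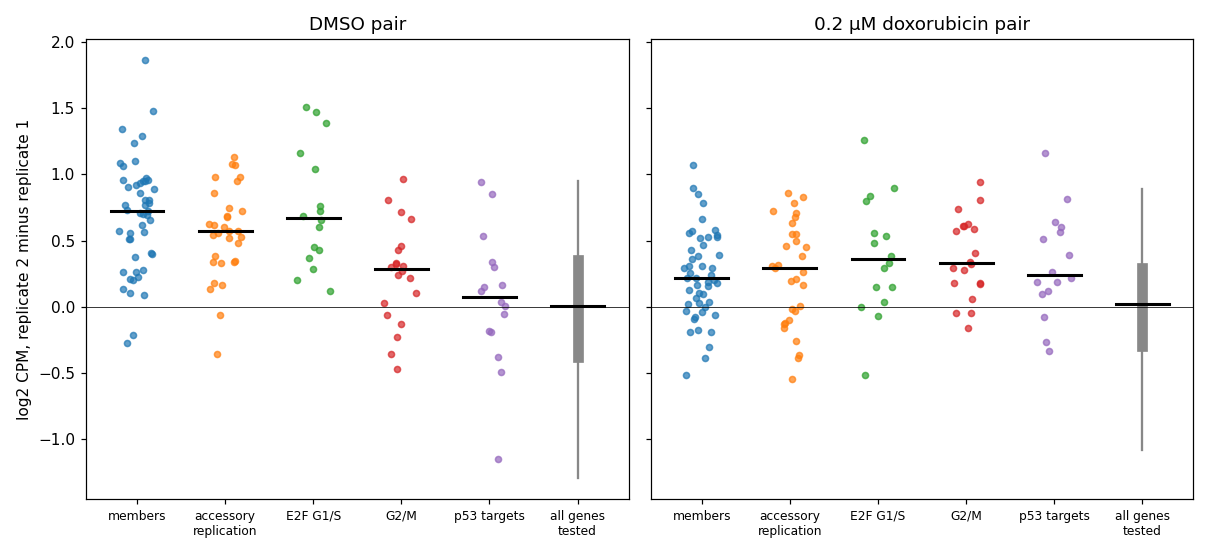
Difference in log2 CPM, library 2 minus library 1, within the DMSO pair (left) and the 0.2 μM doxorubicin pair (right), for the 49 replication genes, the other gene lists and all genes tested, with black lines at medians and grey bars from the 5th to the 95th (thin) and the 25th to the 75th percentile (thick). The replication genes have a median of 0.72 in the DMSO pair and 0.22 in the 0.2 μM pair, and all genes have medians of 0.01 and 0.02.

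Of 31 accessory replication genes, 16 fell and 0 rose past 0.01 (edgeR), against 2.73% and 1.29% of all genes tested. Their median log2 fold change was -1.65. At an adjusted p of 0.05, edgeR called 23 lower and 0 higher, against 7.48% and 6.1% of all genes tested. DESeq2 called 24 lower and 0 higher at 0.01, against 8.18% and 6.72% of 13911 genes. With edgeR, 4 and 2 were called lower without the first and the second 0.2 μM library, and 5 without the 0.34 μM library. Without 1 of these libraries, at most 183 of all genes tested were called lower, against 388 with all libraries. The number of accessory genes called was also lower without DMSO library 1 or DMSO library 2, as was the number over all genes tested. CLSPN, an adaptor of the checkpoint kinase CHK1 at the fork, measured 64.2 and 81.1 CPM in DMSO and 6.999, 10.3 and 3.499 CPM in doxorubicin (log2 fold change -3.40, standard error 0.41, edgeR adjusted p = 0.00431). UHRF1, which brings maintenance methylation to copied DNA, measured 105 and 219.5 CPM in DMSO and 18.4, 24.03 and 12.01 CPM in doxorubicin (log2 fold change -3.16, standard error 0.39, edgeR adjusted p = 0.0047). TICRR, needed to fire origins, measured 21.6 and 27.1 CPM in DMSO and 3.36, 4.199 and 2.70 CPM in doxorubicin (log2 fold change -2.84, standard error 0.25, edgeR adjusted p = 0.00162). All 3 were lower in every doxorubicin library than in either DMSO library.

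By role, edgeR called lower 6 of 8 genes of chromatin assembly behind the fork and 3 of 5 fork protection genes. It called 5 of 11 genes grouped under origin firing, a broad group that includes MCM9. It called 1 of 3 subunits of the alternative clamp loader and 1 of 4 genes of primer and flap removal. Of all genes tested, 2.73% were called lower. The genes of primer and flap removal had a median log2 fold change of -0.54.

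Beside these genes, 9 of the 16 other E2F-driven G1/S genes fell (median -2.07), led by CCNA2 at -3.95, E2F2 at -3.81 and CCNE2 at -3.58. All 20 G2/M genes fell (median -3.74), with PLK1 at -5.53, KIF20A at -5.52 and NEK2 at -4.69. Of 16 p53 targets, 12 rose (median 2.26), with FDXR at 3.75, BTG2 at 3.53 and TP53I3 at 3.51. The summed level of the G2/M genes was 3214 and 3458 CPM in DMSO and 257, 337 and 208 CPM in doxorubicin, a larger difference than that of the MCM ring. Of all genes tested, 2.73% fell and 1.29% rose past 0.01 (edgeR). These lists, like the accessory one, were chosen with earlier results of these data known, so their counts are descriptions and not independent evidence. The part of the listed genes in the levels of the replication genes was not tested.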

How the data were processed

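The authors deposited raw counts of paired-end reads per gene for 5 libraries of poly-A RNA, mapped to hg38 with STAR and counted with Rsubread (featureCounts) and the iGenomes annotation. Tool versions, strand handling and the fate of multi-mapping reads were not given in the sources used here. A deposited table of the authors' own comparison, with means, log2 fold changes and p-values, was not used. ChIP-seq and Hi-C data were not used here.

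The counts were tested in R 4.3.3 with edgeR 4.0.16 (quasi-likelihood, TMM, no covariates), pooling the doses as the authors did. The filter (minimum count 10, minimum total 15) left 14187 of 26485 genes, and calls were made at 0.01 after Benjamini-Hochberg adjustment. The dose contrast came from a fit of 3 conditions. Log2 CPM used a prior count of 2, and normalization factors were between 0.975 and 1.04. DESeq2 1.42.0, the authors' tool, limma 3.58.1, other normalizations, filters, thresholds and doses, thinned counts, a replicate block and leaving out each library were alternatives. The pipeline was tested on simulated data.

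The chi-square between libraries of a pair was 117 (DMSO) and 75.3 (0.2 μM) per degree of freedom, so all were counted as separate.

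The genes and lists, compiled from general knowledge, were chosen with earlier results of these data known. All 49 genes may be named, and of each other list the 3 with the largest absolute log2 fold change past 0.01 and fixed examples. Others were named after their values were seen. Of the 49 genes, 22 overlap no other annotated gene and 27 do (GRCh38, RefSeq), and without the strand setting reads of overlapping genes cannot be told apart. Pseudogenes named after PCNA, FEN1, DBF4, RPA2, RPA3, RFC3, RFC5, POLD2, POLE4 and ORC1 could share reads with them. Promoters were taken from RefSeq (GRCh38.p14), 1 per gene, the entry nearest the start of the canonical GENCODE transcript, whose length was also used for CPM per kilobase.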

Additional observations from a re-analysis of the deposited data

How the results depend on the processing

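The number of replication genes called lower was 26, and it was 41 with DESeq2, 41 at an adjusted p of 0.05, 39 without the filter on low counts, 5 at 0.2 μM alone and 0 at 0.34 μM alone. limma voom, the RLE normalization and library size alone each gave 23, and thinned counts gave 28. Leaving out 1 library gave between 0 (without DMSO library 2) and 20. The number called higher was 1, and 0 at either dose alone and without any 1 library. Of the accessory genes, 4 were called at 0.2 μM, 1 at 0.34 μM, and between 0 and 8 without 1 library. Without 1 library the median log2 fold change was between -2.30 and -1.50 over all 49 genes, between -2.81 and -1.68 for MCM2 to MCM7, between -1.37 and -0.79 for polymerase δ and between -2.30 and -1.50 for RFC. The sign turned for ORC4 (-0.01 without DMSO library 1, -0.029 without the second 0.2 μM library, up to 0.21) and, without DMSO library 2, for POLE4 (0.58, down to -0.70 without 1 other library), RPA3 (0.17, down to -1.07) and LIG1 (0.12, down to -0.52). Over 15 settings, 507 values of single genes kept their direction and side of the threshold, 162 lost the call, 61 gained it and 5 turned. No gene was called between the doses in any setting run. The median difference within the DMSO pair was between 0.72 and 0.81 and that within the 0.2 μM pair between 0.22 and 0.27 under other normalizations and prior counts. Where settings change a call, the cause was not tested.

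With the replicate number as a block (DMSO and 0.2 μM libraries only), 38 genes were called lower and 2 higher, PCNA (adjusted p = 0.00167, edgeR) and POLD4. The smallest adjusted p among the 49 genes was 9.66e-08 in this blocked fit, against 0.0011 in the main fit (edgeR). The share of all genes that the blocked fit called is not given here, so its counts are not set against those of the main fit. The labels do not say that a number marks a shared culture, and there are only 2 pairs. The deviations of same-numbered libraries correlated at r = 0.528 over 14187 genes and 0.0594 over the 49 genes, a description across genes that are not independent.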
